A study of Saccharomyces cerevisiae with 60 samples.

Results

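MRH1, YRO2 and HSP30 of Saccharomyces cerevisiae were described here as a family of related plasma membrane proteins on 60 arrays of 2 colours. The members were the rows of the array whose gene symbol was 1 of these names, which gave 3 genes of 5524, with 1 row each. MRH1 (YDR033W, chromosome IV, a coding length of 963 bases for 320 amino acids), YRO2 (YBR054W, chromosome II, 1035 bases, 344 amino acids) and HSP30 (YCR021C, chromosome III, 999 bases, 332 amino acids) are named as in the RefSeq table of R64. The family was chosen by measured values, since MRH1 had drawn attention through its range among strains in copper medium. Its values in that medium, and the interaction that uses them, are therefore given as a description with no test. All 3 members were listed with earlier results of these data known.

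The 3 proteins are known as relatives of the microbial rhodopsins, proteins that span the membrane several times. HSP30 is known to be induced by heat, ethanol and weak acids and to restrain Pma1, the proton pump of the plasma membrane. MRH1 takes its name from being a membrane protein related to Hsp30, and YRO2 is its paralogue. YRO2 is known as a target of HAA1, the transcription factor of the response to acetic acid. Retinal, the pigment of the true rhodopsins, is not known to be used by any of them.

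The arrays held RNA from 9 strains in exponential growth. These were S288C, YPS163, M5, M8, M13, M14, M22, M32 and M34, each in medium with copper sulfate and in rich medium. As background that the labels do not state, S288C is a laboratory strain, YPS163 comes from oak woodland and the M strains come from vineyards. Each strain was hybridised on 3 arrays per medium against a pool that mixed RNA of the 9 strains grown in the same medium, and 6 further arrays set the copper pool against the rich medium pool. Each strain is 1 isolate, the copper dose is not given in the sources used here, and separate cultures for the replicates are not mentioned. The p-values therefore measure only the spread between these arrays, which may be technical.

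A value is the log2 ratio of a strain to its pool, or of the copper pool to the rich medium pool, centred on the median of its array. A value of 1 is a ratio of 2. Which channel was divided by which had to be inferred. If the strains entered the pool in equal amounts, their linear ratios average 1. Read as channel 1 over channel 2, the mean MRH1 ratio over the strains was 1.00 in copper medium and 0.98 in rich medium. Read the other way, it was 2.26 in copper medium and 2.09 in rich medium. The other members had mean ratios between 0.973 and 1.05 in the direction of channel 1 over channel 2, and between 1.04 and 1.31 in the opposite one. Over the 200 most variable rows the log2 of the mean ratio had a median size of 0.11 in copper and 0.12 in rich medium in the direction used. In the opposite one the sizes were 0.38 and 0.39. The 6 pool arrays were read as channel 2 over channel 1, which places CUP1-1, the metallothionein gene that copper is known to induce, between 3.45 and 8.92 above the rich medium pool on every array. With the sign turned, every higher value below would be a lower one: YRO2 in the pools would be at -1.41, and MRH1 of S288C at -2.62 in copper and -2.16 in rich medium against the other strains. The files do not state the direction, so it remains inferred. Centred arrays of the same channel order, the same medium and different strains correlated below -0.3 in 49 of 352 pairs. After correction for spot position, by subtracting the running median of the surrounding spots on the array, 0 pairs did. YPS163 in rich medium, replicate 2, stood apart with a median absolute deviation of 0.831, the highest of all arrays.

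YRO2 rose in the copper pool. Its 6 pool arrays read 1.76, 1.92, 1.54, 0.91, 1.10 and 0.78, all above 0, with a mean of 1.33 ± 0.47 (SD, n = 6). In the limma fit with a channel effect the copper pool was 1.41 ± 0.18 higher than the rich medium pool (SE, n = 6 arrays, adjusted p = 0.00124), a 2.66-fold difference. By size with sign it ranked 12 of 5524 genes. Over all genes 78 passed this test, which is 1.41%, and 1.18% passed as higher in the copper pool. With spot position corrected YRO2 was at 1.55 (adjusted p = 3.76e-04), where 2.08% of all genes passed. YRO2 passed in all 6 alternative settings and without each of the 6 arrays, with values between 1.16 and 1.66.

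HSP30 was not called in the pools. Its arrays read 0.68, 0.79, 0.53, 0.64, -0.16 and 0.18, so 5 of 6 lay above 0, with a mean of 0.44 ± 0.36 (SD, n = 6). The fitted difference of the copper pool from the rich medium pool was 0.48 ± 0.17 (SE, adjusted p = 0.225 by limma). With spot position corrected the difference was 0.54 ± 0.14 (adjusted p = 0.0823), which also missed the threshold.

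MRH1 had no settled direction in the pools. Its arrays read 0.65, -0.27, 0.56, -0.22, 0.08 and -0.26. The arrays with the copper pool in channel 1 were the first and the third of these, and they lay above the other 4. The fitted difference was 0.22 ± 0.15 (SE, adjusted p = 0.517 by limma) beside a channel effect of 0.39, and centring within 16 blocks turned the difference to -0.054. Over all genes the median size of the channel effect was 0.28 and that of the copper effect 0.18.

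**Figure D1:**
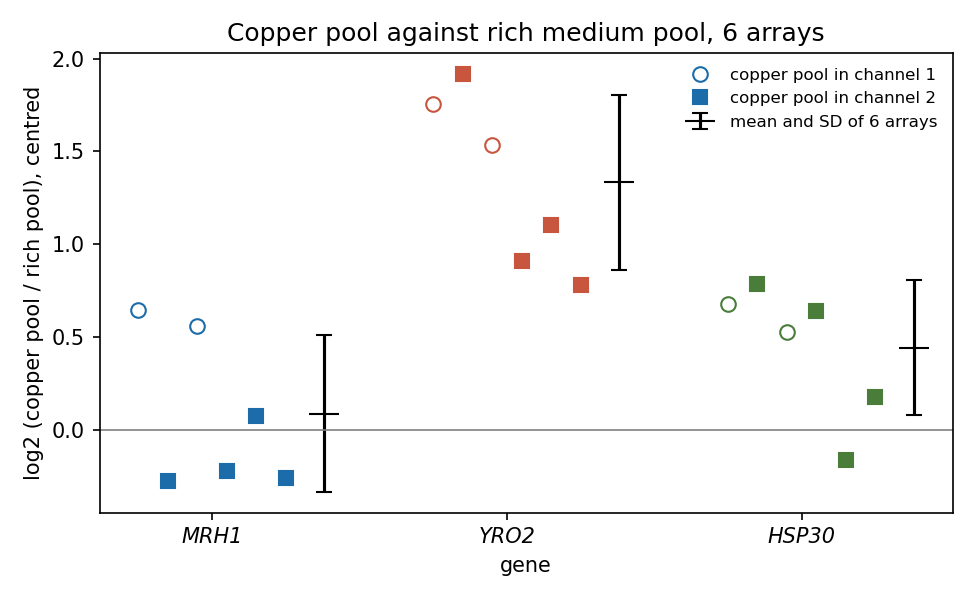
Log2 ratio of the copper pool to the rich medium pool (vertical axis, centred) for each gene on 6 arrays, with open circles for arrays that had the copper pool in channel 1, filled squares for channel 2, and the mean with its SD beside them. All 6 YRO2 values lie above 0, HSP30 has 1 value below 0, and the 2 open circles of MRH1 lie above its squares.

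Of the 3 members MRH1 had the widest strain range. In copper medium the 3 arrays of S288C read 1.66, 1.54 and 1.76 and those of M13 read 1.89, 0.87 and 1.38. These were the strains with every array above 0, and the 2 sets of values overlapped. M32 read 0.03, 0.15 and -0.38, and YPS163 read -0.47, -0.27 and -0.51. Both lay close to the pool and below every array of S288C and M13. M34 read -0.60, -0.89 and -1.63, and all of its arrays were lower than those of YPS163. M5 read -2.03, -1.77 and -0.71, and M22 read -1.48, -2.62 and -1.37. M8 read -2.26, -1.87 and -1.80, and M14 read -2.49, -2.19 and -2.15. These 4 strains formed the low end, and each overlapped its neighbour in the order of means.

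Between the means of S288C (1.65 ± 0.11, SD, n = 3) and M14 (-2.28 ± 0.18) the copper range of MRH1 was 3.93, which is a ratio of 15.2. Of the 8 pairs of neighbours in the order S288C, M13, M32, YPS163, M34, M5, M22, M8 and M14, 6 overlapped and 2 did not: M13 with M32, and YPS163 with M34. With spot position corrected the 2 pairs apart were M13 with M32 and M32 with YPS163, while YPS163 and M34 overlapped. Pairs apart were not counted over all genes, so for each member they are a description only. As a description with no test, S288C lay 2.62 ± 0.34 above the mean of the other 8 strains (SE), M13 lay 2.31 ± 0.34 above, M8 was at -1.46 ± 0.34 and M14 at -1.80 ± 0.34.

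In rich medium, on other arrays and against another pool, MRH1 gave a similar order. S288C read 0.46, 2.07 and 1.48, and M13 read 1.39, 1.08 and 0.71, again with all arrays above 0. M32 read 1.38, -0.19 and 0.28, YPS163 read -0.25, 0.83 and -0.26, and M34 read -0.28, -2.01 and 0.03. These 3 strains lay on both sides of 0. M22 read -1.61, -1.16 and -1.66, and M5 read -2.54, -1.79 and -0.99. M14 read -1.68, -2.51 and -1.92, and M8 read -1.54, -2.36 and -2.43. These 4 strains, which also formed the low end in copper medium, were those with every array below 0. In copper medium 6 strains had every array below 0, with YPS163 and M34 among them. Here all 8 pairs of neighbours overlapped. With spot position corrected M32 lay above 0 and M34 below 0 on every rich medium array, and YPS163 stayed on both sides.

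The strain range of MRH1 in rich medium was 3.45, a ratio of 10.9, with adjusted p = 2.48e-08 by the limma F-test over 9 strains. It ranked 20 of 5524 genes by range and 3 by p, where the median range of all genes was 0.91 and 90 genes passed (1.63%, or 2.62% with spot position corrected). The call held in all 8 alternatives other than leaving out arrays and in all 30 that left out an array or a replicate number, with ranges between 3.04 and 4.18. Without YPS163 replicate 2 the range was 3.45 (adjusted p = 1.17e-08). The strain means of MRH1 in copper and in rich medium had a Pearson r of 0.967 over 9 strains, and both media used the same strains.

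Single strains in rich medium were set against the mean of the other 8 for each member, 27 contrasts in all, of which 5 passed. The share of all genes called was 1.07% for S288C, 0.344% for M13, 0.272% for M34, 0.217% for YPS163, 0.145% for M8, 0.0724% for M5, 0.0543% for M32, 0.0362% for M14 and 0.0% for M22. The M8 share was unstable: 8 genes were called, 2089 had an unadjusted p under 0.05, and the number called over the settings ran from 0 to 1529. MRH1 was higher in S288C by 2.16 ± 0.34 (SE, n = 3 arrays, adjusted p = 5.80e-05 by limma), where 0.941% of all genes passed as higher. It was higher in M13 by 1.84 ± 0.34 (adjusted p = 0.00149), where 0.272% passed as higher. It was lower in M8, at -1.72 ± 0.34 (adjusted p = 0.00826), where 0.109% of all genes passed as lower, and in M14, at -1.64 ± 0.34 (adjusted p = 0.0418), where 0.0362% did. YRO2 was higher in M13 by 1.82 ± 0.40 (adjusted p = 0.0172).

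The S288C call of MRH1 held in all 8 alternatives and in all 30 omissions of arrays. The other calls ended in some of them. The M13 call of MRH1 ended without M13 replicate 1 (adjusted p = 0.0901), M13 replicate 2 (0.0628) or replicate 1 of every strain (0.215). The M8 call held in 3 of 8 alternatives other than leaving out arrays. It ended with spot position corrected, where the difference was -1.09 (adjusted p = 0.334), with centring in blocks, at -0.92 (0.47), with equal spread of the arrays (0.232), without centring (0.0641) and with the rich medium arrays alone (0.148). It also ended without M8 replicate 2 (0.353), M8 replicate 3 (0.0769) or any 1 replicate number of every strain (0.0993, 0.176 and 0.0596). The M14 call held in 4 of 8 alternatives, among them the one with spot position corrected (0.0304). It ended without centring (adjusted p = 0.997), with equal spread of the arrays (0.0573), with the replicate number as a block (0.0523) and with the rich medium arrays alone (0.375). It also ended in 15 of the 30 omissions, those of its own arrays included (adjusted p = 0.17, 0.689 and 0.197). M5, at -1.39 ± 0.34, did not pass (adjusted p = 0.0952) but did with spot position corrected, at -1.49 (adjusted p = 0.042).

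**Figure D2:**
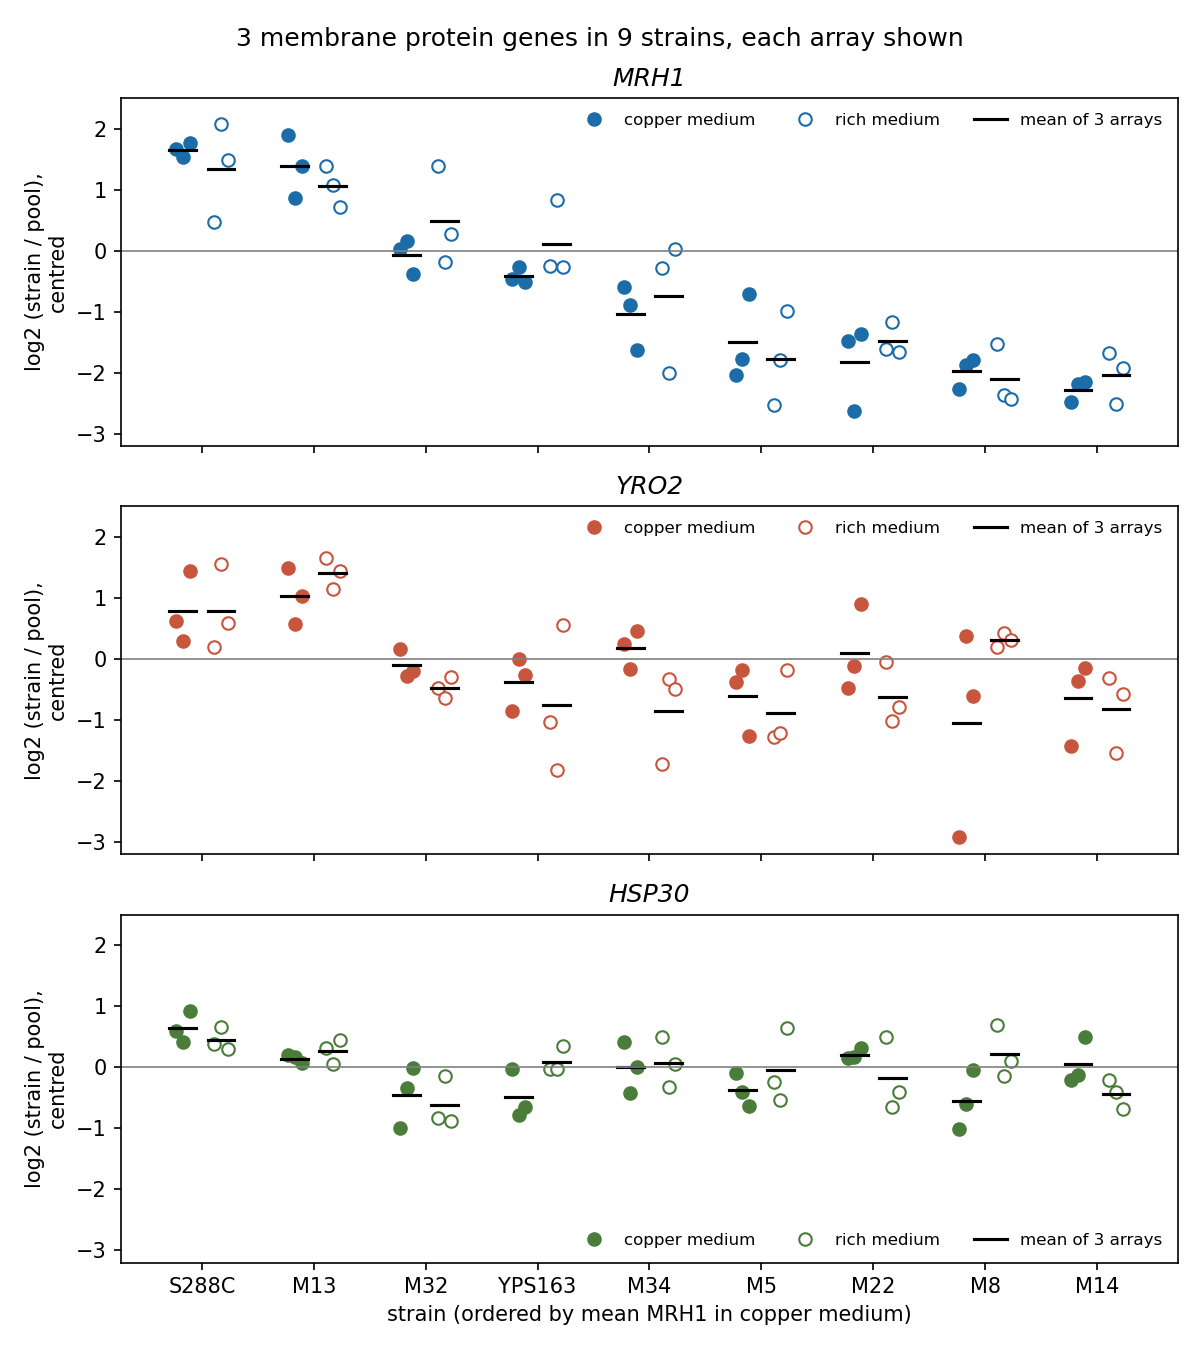
Log2 ratio of each strain to its pool (vertical axis, centred) for MRH1, YRO2 and HSP30 in 9 strains, with filled points for copper medium, open points for rich medium and a bar at the mean of 3 arrays. MRH1 runs from 1.65 in S288C to -2.28 in M14 in copper medium. S288C and M13 lie above 0 in every MRH1 and YRO2 array, and HSP30 spans the narrowest range. Spot position is not corrected in these values.

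YRO2 was highest in M13 and S288C in both media. In copper medium M13 read 1.49, 0.58 and 1.03, and S288C read 0.63, 0.30 and 1.44. Every other strain had an array below 0: M34 read 0.24, -0.16 and 0.45, and M22 read -0.48, -0.12 and 0.89. M8 was the most uneven group of the family, with -2.92, 0.38 and -0.60. The remaining strains had means of -0.11 (M32), -0.37 (YPS163), -0.61 (M5) and -0.64 (M14), and each of the 8 pairs of neighbours overlapped.

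The copper range of YRO2, 2.08 between M13 and M8, did not pass the F-test (adjusted p = 0.20 by limma, where 1.45% of all genes passed, or 3.39% with spot position corrected). It passed with spot position corrected (2.01, adjusted p = 0.0482), with arrays scaled to an equal spread (2.65, adjusted p = 0.0135), and without M8 replicate 2 (2.76, adjusted p = 0.0313). The value in M8 rests on its replicate 1 at -2.92.

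In rich medium M13 had the 3 YRO2 values 1.65, 1.14 and 1.45, and S288C had 0.20, 1.56 and 0.60. M8, the lowest strain in copper medium, came next to S288C here, with 0.20, 0.42 and 0.30. These 3 strains had every array above 0, and M8 did not overlap the next strain, M32, with -0.47, -0.65 and -0.30. M22 read -0.05, -1.02 and -0.79, M14 read -0.32, -1.54 and -0.58, and M5 read -1.28, -1.21 and -0.19. YPS163 spread from -1.82 to 0.56 and M34 from -1.72 to -0.32. With spot position corrected the M8 arrays read -0.24, -0.39 and -0.12, all below 0. The median of the spots around YRO2 was 0.44, 0.81 and 0.43 on these arrays. S288C replicate 1 read -0.05 after the same correction, so M13 alone kept every array above 0.

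The fitted strain range of YRO2 in rich medium was 2.26 and passed the F-test (adjusted p = 0.0191 by limma). It passed in 7 of 8 alternatives other than leaving out arrays, and with spot position corrected it was 2.37 (adjusted p = 0.00248). The call ended without M13 replicate 1 (2.04, adjusted p = 0.13) or M13 replicate 3 (2.28, adjusted p = 0.0681), and without any 1 of the replicate numbers of every strain (adjusted p = 0.216, 0.11 and 0.153). The contrast of M13 against the other strains likewise ended without any 1 of the 3 M13 arrays (adjusted p = 0.401, 0.0728 and 0.108), with values that stayed between 1.60 and 2.00.

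HSP30 varied least of the 3. In copper medium S288C read 0.59, 0.42 and 0.92, and these values lay above all arrays of the next strain, M22, with 0.15, 0.16 and 0.31. M13 was also above 0 on every array, with 0.19, 0.16 and 0.07. The low end was M8 with -1.02, -0.60 and -0.05, YPS163 with -0.03, -0.78 and -0.65, M32 with -1.0, -0.34 and -0.02, and M5 with -0.10, -0.40 and -0.64. M14 had a mean of 0.06 and M34 a mean of 0.00, each with arrays on both sides of 0. S288C was not apart from every strain, since M14 replicate 3, at 0.50, lay above S288C replicate 2, at 0.42. With spot position corrected M34 replicate 1, at 0.75, lay above S288C replicates 1 and 2, at 0.50 and 0.52.

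The HSP30 range of 1.20 in copper medium did not pass (adjusted p = 0.212 by limma), and S288C lay 0.83 ± 0.24 above the other 8 strains (SE, adjusted p = 0.0741). Among all genes 1.25% passed that contrast. The HSP30 difference passed in 5 of 8 alternatives other than leaving out arrays, among them the one with spot position corrected (0.73, adjusted p = 0.0373), and without M8 replicate 3 (0.86, adjusted p = 0.0463). Of 18 contrasts of single strains in copper medium for YRO2 and HSP30, 0 passed by limma, and 5 had an unadjusted p under 0.05. For the other strains the share of all genes called there was 0.362% for M13, 0.308% for YPS163, 0.217% for M32 and M34, 0.109% for M5, and 0.0362% for M8, M14 and M22.

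In rich medium S288C again had the highest HSP30 mean, with 0.39, 0.66 and 0.30, followed by M13 with 0.32, 0.06 and 0.45. M32 was the lowest, with -0.84, -0.15 and -0.87, and M14 next, with -0.21, -0.41 and -0.69. The other strains had means between -0.18 (M22) and 0.22 (M8), and all 8 neighbour pairs overlapped. The range of 1.07 did not pass (adjusted p = 0.383).

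**Figure D3:**
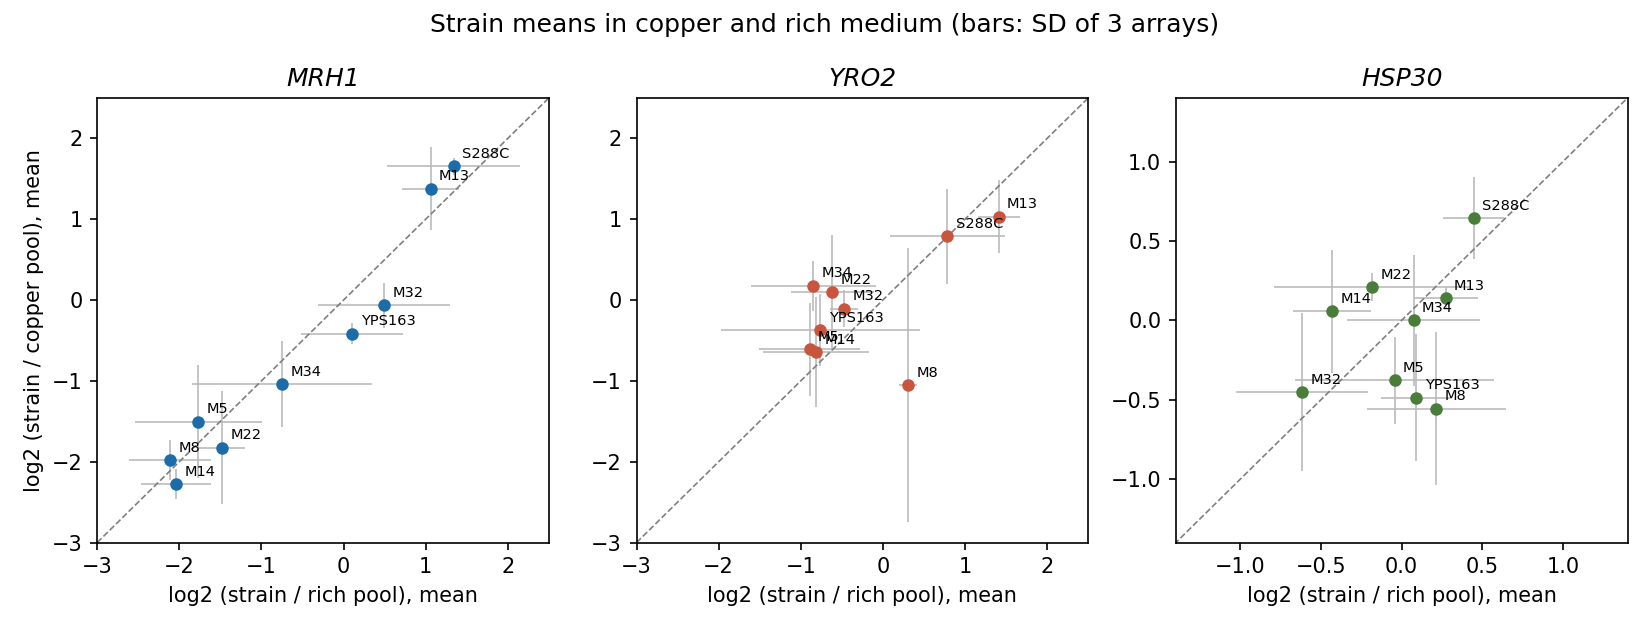
Mean log2 ratio of each strain to the copper pool (vertical axis) against its mean ratio to the rich medium pool (horizontal axis), with bars for the SD of 3 arrays and a dashed line of equality; the HSP30 panel has narrower axes. MRH1 runs along the line from M14 and M8 to S288C, while YRO2 of M8 lies at 0.31 in rich and -1.05 in copper medium.

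The members resembled each other to different degrees across strains. In copper medium MRH1 and YRO2 had a Pearson r of 0.833 over the 9 strain means, YRO2 and HSP30 had 0.737, and MRH1 and HSP30 had 0.453. In rich medium the same pairs had 0.574, 0.638 and 0.341. The points share arrays and pools, so these are descriptions. MRH1 and YRO2 are related in sequence, and whether their spots share hybridisation was not tested.

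The response of each strain to copper was summed from the pool difference and the 2 fitted means of the strain. For YRO2 it lay above 0 in all 9 strains, from 0.06 in M8 to 2.44 in M34, with a median of 1.61. Each of these sums includes the same pool difference of 1.41, and that of M8 includes the copper array at -2.92. Correction for spot position moved the YRO2 mean in rich medium from 0.31 to -0.25 in M8 and from -0.85 to -0.15 in M34. YPS163, with corrected means of -0.16 in copper and -0.88 in rich medium, then has the highest sum in place of M34. M8 remains the lowest. For HSP30 the response lay above 0 in 7 strains and below in YPS163 (-0.09) and M8 (-0.29), with 0.97 in M14 as the highest. These 2 signs did not hold with spot position corrected, where the pool difference of HSP30 was 0.54. Its corrected means were -0.25 in copper and -0.04 in rich medium for YPS163, and -0.47 and -0.22 for M8. The sums then lie above 0 in both strains. For MRH1 the response ran from -0.34 in M32 to 0.54 in M13, with 4 strains above 0 and 5 below. With spot position corrected its pool difference was 0.037. The corrected MRH1 means were -2.06 in copper and -1.58 in rich medium for M8, and -1.56 and -1.64 for M22. The MRH1 sum then lies below 0 in M8 and above 0 in M22. YPS163, with corrected means of -0.62 and 0.06, then has the lowest sum. With spot position corrected the span from the lowest to the highest strain narrowed from 2.38 to 1.53 for YRO2 and from 1.26 to 0.52 for HSP30. The span of MRH1 widened from 0.87 to 1.18. A different response between strains was not called: the interaction of strain and medium had adjusted p = 0.873 for YRO2 and 0.873 for HSP30 by the limma F-test. Of the 5524 genes 0 (0.0%) passed that test, 261 had an unadjusted p under 0.05, and limma with a robust empirical Bayes step also gave 0.

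**Figure D4:**
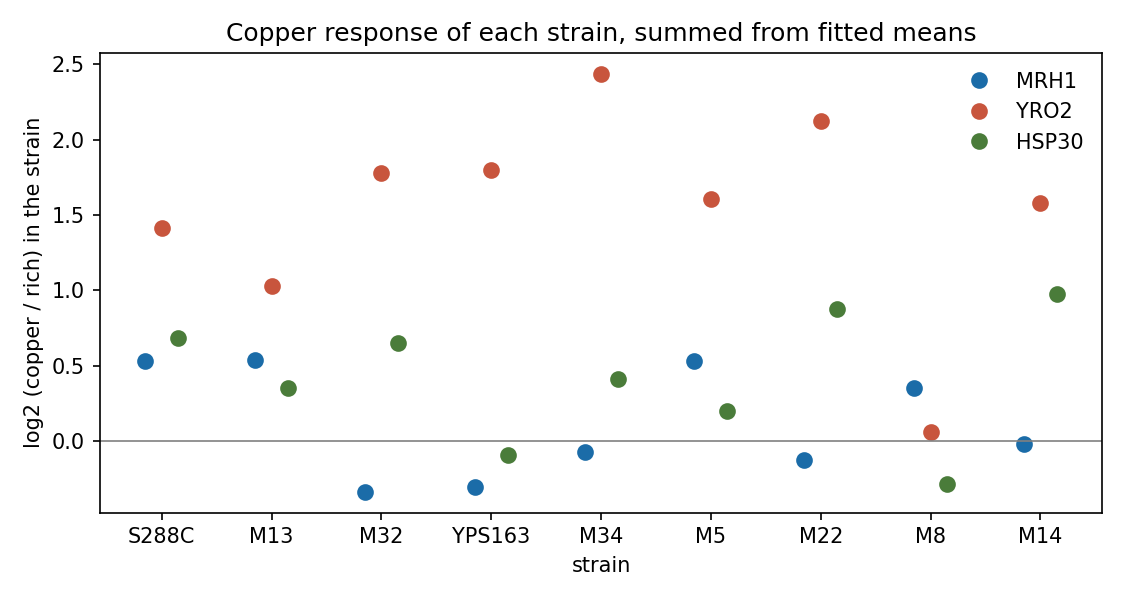
Log2 ratio of copper to rich medium within each strain (vertical axis), summed from fitted means, for MRH1, YRO2 and HSP30. YRO2 is above 0 in every strain and reaches 2.44 in M34, its value in M8 is 0.06, and MRH1 stays between -0.34 and 0.54. Spot position is not corrected in these values.

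The genes most like each member over the 18 fitted group means were taken by Pearson r. For MRH1 the top 5 were YCL019W (0.93), YNL054W-B (0.914), YLR410W-B (0.91), YDR261W-B (0.892) and YLR227W-B (0.891), all known as reading frames of Ty retrotransposons, whose many near-identical copies share hybridisation. With spot position corrected these 5 stayed within the top 10, with r between 0.868 and 0.917. For YRO2 the top 3 were again Ty reading frames, YGR038C-B (0.879), YDR210W-B (0.862) and YNL054W-B (0.858). For HSP30 they were BGL2, a glucanase gene of the cell wall (0.798), YCR023C, a gene of a putative transporter (0.794), and REE1 (0.79). After position correction BGL2 stood at rank 205 with 0.528. YCR023C has the row number next to HSP30 on the array and lies close to it on chromosome III.

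**Figure D5:**
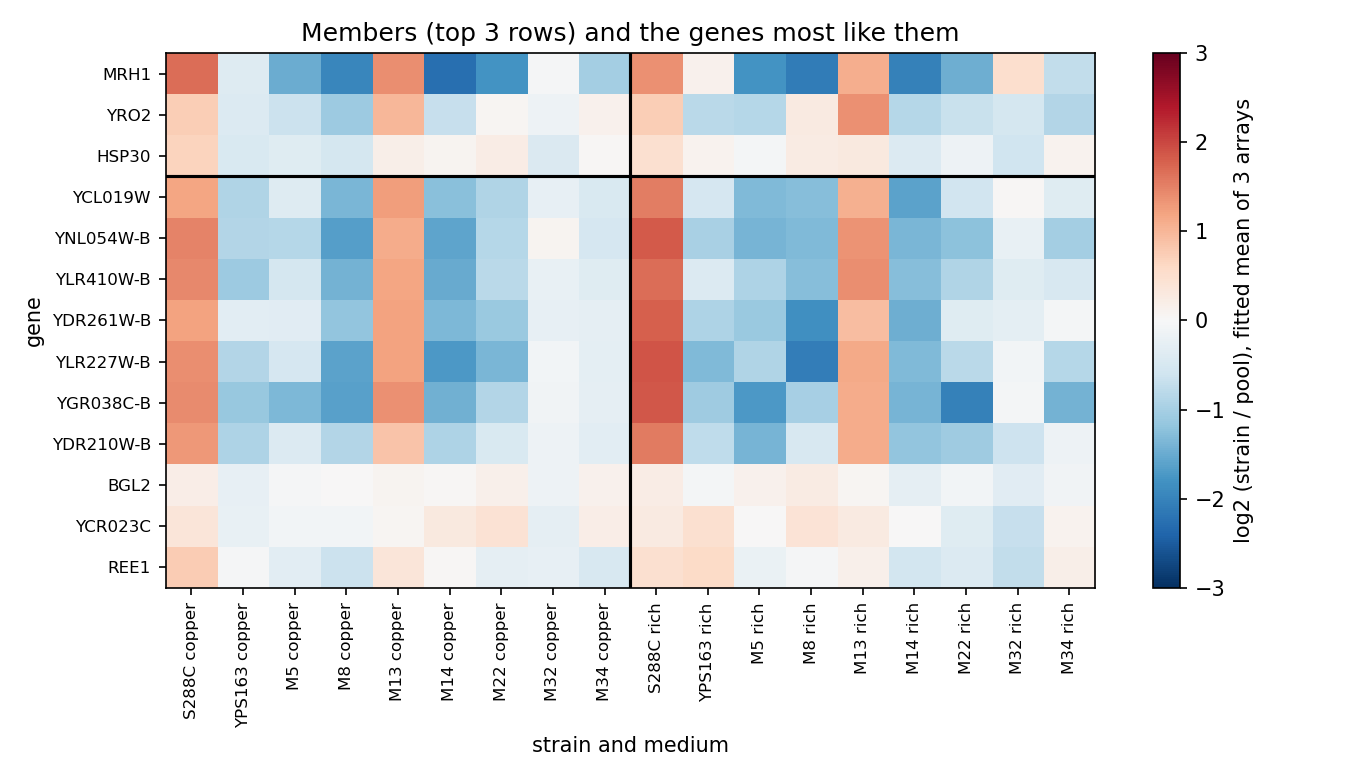
Fitted mean log2 ratio of strain to pool (colour, red higher and blue lower) for the 3 members in the top rows and the genes most like them below, with copper medium on the left and rich medium on the right. The Ty reading frames are red in S288C and M13 in both media, as MRH1 and YRO2 are, and HSP30 and its 3 genes are pale.

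The genes beside the members named here were not called over strains. LYS14, the gene next to MRH1 in R64, had strain ranges of 0.96 in copper and 1.21 in rich medium (adjusted p = 1.00 and 0.155 by limma) and an r of 0.17 with MRH1. NRG1 and MIX14, at the row numbers next to MRH1, had r of 0.397 and 0.178 with it, or 0.485 and 0.21 with spot position corrected. SXM1 and DFP3, 24 row numbers away, had r of -0.051 and 0.212. PRP6 and YBR053C flank YRO2 and had r of 0.034 and 0.326 with it. With spot position corrected these were 0.198 and 0.593. RFS1, at the row number before YRO2, had an r of 0.794, or 0.735 with spot position corrected. Its ranges of 0.89 and 0.92 did not pass (adjusted p = 1.00 and 0.69 by limma).

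The list of general stress genes under MSN2 and MSN4 was chosen with earlier results of these data known. Its median difference of the copper pool from the rich medium pool was 1.13, against -0.04 for all genes. Of 17 measured, 13 passed as higher in the copper pool and 0 as lower, where 1.18% of all genes passed as higher. Examples are HSP12, a membrane-protecting stress protein (3.15 ± 0.19, SE, adjusted p = 1.78e-06 by limma), ALD3, an aldehyde dehydrogenase (2.11 ± 0.18), MSC1 (1.92 ± 0.17) and HXK1, a hexokinase (2.05 ± 0.22). The YRO2 difference of 1.41 was above the median of this list. In the test over strains 0 of the 17 passed in copper and 0 in rich medium by limma. Over all genes 1.45% passed in copper and 1.63% in rich medium, so 0 of 17 is near those shares. In S288C in copper medium, where MRH1 lay above the other strains, the list median was 0.70 against 0.02 for all genes, and its part in that difference was not tested.

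Of 11 measured weak acid genes under HAA1, YRO2 itself not counted, 2 passed as higher in the copper pool and 0 as lower. These were the cell wall protein gene SPI1 (1.14 ± 0.16, adjusted p = 0.00301 by limma), which is also on the general stress list, and YGP1, which encodes a secreted glycoprotein (1.02 ± 0.19, adjusted p = 0.0152). The list median was -0.10, and 1.18% of all genes passed as higher in the copper pool. Over strains 1.45% of all genes passed in copper medium and 1.63% in rich medium. YGP1 was also the list's 1 gene called over strains in copper medium (range 2.52, adjusted p = 0.018) and was higher in S288C there (1.61 ± 0.38, adjusted p = 0.0164). In rich medium 1 gene of that list passed over strains, PUN1, a membrane protein gene (1.54, adjusted p = 0.00161), which was not called with spot position corrected (0.0844).

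Of 7 genes of the proton pump Pma1 and its regulators, 0 passed in the pools, over strains in copper or over strains in rich medium by limma, with a pool median of -0.11. Of 14 measured eisosome and membrane domain genes 0 passed in the pools (median -0.02) and 0 over strains in copper. In rich medium 2 passed, PUN1 and FMP45 (2.08, adjusted p = 0.0356 by limma), and neither was called with spot position corrected (0.0844 and 0.155). Over all genes 1.41% passed in the pools, 1.45% over strains in copper and 1.63% over strains in rich medium. Counts of 0 in lists of 7 or 14 genes are near those shares.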

How the data were processed

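RNA of 9 strains in 2 media was hybridised against pools on 54 arrays, and 6 arrays compared the pools. Per the labels, a GenePix scanner and software were used and bad spots were marked from the images. The deposited values are log2 ratios: 100% of the ratios under 10 computed from them lay within 0.00001 of 3 decimals. The dye of each sample, background correction and any normalization by the authors are not given. Array medians ran from -0.77 to 1.16 and median absolute deviations (MAD) from 0.15 to 0.83.

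Each array was centred on its median here. Of 6144 rows, 5541 had 1 listed gene, 0 several and 603 none, and 5536 matched R64 by gene ID. Rows of 1 gene were averaged, which gave 5524 genes. Using limma 3.58.1 under R 4.3.3, a model of 18 group means plus a channel effect was fitted to the strain arrays, and a mean plus a channel effect to the pool arrays, with Benjamini-Hochberg adjustment over all genes at 0.05. Preparation used Python 3.11.15, NumPy 2.4.6 and pandas 2.3.3, and figures matplotlib 3.10.9. Arrays limit the precision.

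Alternatives were no centring, equal MAD, no channel effect, robust empirical Bayes, a running median of 15 by 15 spots, centring in 16 blocks, a replicate block, only the arrays of that medium, and leaving out arrays or replicate numbers. Spots were laid out from row numbers as 4 strips of 64 rows by 24 columns, inferred from an autocorrelation of component 1 of 0.914 between neighbouring rows and 0.936 between spots a strip apart. Each member has 1 row, so rows were not tried singly. Without replicate 1 of every strain no channel effect was fitted. The text names the members, up to 4 called genes per list, the genes most like each member (5, 3 and 3), and CUP1-1. Genes next to the members were chosen after values were seen. The members and lists were chosen with earlier results of these data known.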

Additional observations from a re-analysis of the deposited data

How the results depend on the processing

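Leaving out single pool arrays kept the differences of the copper pool from the rich medium pool between 1.29 and 1.48 for YRO2, 0.41 and 0.57 for HSP30, and 0.18 and 0.24 for MRH1, with no change of call. MRH1 in the pools was at -0.054 with centring in blocks, and its call did not change. Scaling arrays to an equal MAD moved the copper range of MRH1 to 4.80 and its interaction range, 0.87, to 1.74. It brought the copper range of YRO2 to 2.65 and of HSP30 to 1.45, both past the threshold (adjusted p = 0.0135 and 0.0139), and took the rich range of YRO2, 2.43, below it (0.0606). The running median over spots passed the copper range of YRO2 (2.01), and centring in blocks that of HSP30 (1.18, adjusted p = 0.0434). The HSP30 difference of S288C from the other strains in copper passed with equal MAD (0.97), the running median (0.73), blocks (0.83), only the copper arrays (0.83) and the replicate block (0.83, adjusted p = 0.0374), and ranged from 0.66 to 0.92 without single arrays or replicate numbers. Under the same omissions the copper range of YRO2 ran from 1.59 to 3.02, its rich range from 2.04 to 2.82, and the interaction range of MRH1 from 0.84 to 1.74. The difference of YPS163 from the other strains in MRH1 in copper, 0.29, turned to -0.094 with centring in blocks. Without centring the median of all genes in the S288C contrast moved to -0.48 in copper and -0.11 in rich medium, and the MRH1 difference, 2.12 in copper and 2.04 in rich medium, kept its sign.

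The replicate numbers were not taken to pair the arrays, since not every pair of same-numbered arrays correlated above 0.1 in its deviations from the group means. For replicate 1 in copper 34 of 36 pairs did, and for the other 5 sets of a number and a medium 20 to 25 of 36. The medians of the 6 sets lay between 0.146 and 0.321, all above 0, and the lowest single r was -0.64. These deviations were not corrected for the channel. Replicate 1 of every strain had the strain in channel 2. Replicates 2 and 3 had it in channel 1, except M5 replicate 3 in rich medium. Channel order and the set of replicate 1 arrays can therefore hardly be told apart. With the replicate block 1529 genes were called in M8 in rich medium, against 8 without it, and the M14 difference of MRH1 in rich medium was -1.60 (adjusted p = 0.0523) and that of M5 -1.77 (0.0396). Over all genes the number called moved from 78 in the pools to between 15 and 115 over the settings, from 80 over strains in copper to between 18 and 240, and from 90 in rich medium to between 25 and 176. Signal over background is not given in these values, so the limits of weak spots are unknown.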
